A study of Arabidopsis thaliana with 4 samples.

Results

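The genes described here are the nuclear genes of *Arabidopsis thaliana* that encode the light-harvesting antenna, the subunits of both photosystems, the electron carriers of the thylakoid membrane and the small subunit of Rubisco. They were chosen as a list of named loci, by a rule that uses no measured value but was written with earlier results of these data known, and 52 of the 29030 loci on the array belong to them. The list holds 14 antenna genes of photosystem II, 6 antenna genes of photosystem I, 12 photosystem I genes, 10 photosystem II genes, 6 genes of electron carriers and 4 Rubisco small-subunit genes. They were read by 174 of the 43603 probes. The study exposed seedlings of the ecotype Col0, 7 days old, to the volatile compounds (mVOCs) of the bacterium *Erwinia amylovora*. The bacterium grew on a separate part of the same Petri dish, and exposure lasted 16 h. RNA came from whole seedlings, roots and shoots, and in such bulk samples fewer cells of a type cannot be told apart from less RNA per cell. On each of 4 two-colour arrays, 1 biological replicate of unexposed control seedlings, labelled with Cy3, was hybridised together with 1 replicate of exposed seedlings, labelled with Cy5. The dyes were never exchanged, so a dye effect on a probe and an effect of exposure cannot be told apart.

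In the thylakoid membrane, LHCB proteins gather light for photosystem II and LHCA proteins for photosystem I. Photosystem II oxidises water, plastocyanin carries electrons from the cytochrome b6f complex to photosystem I, and ferredoxin passes them on to NADP. Rubisco fixes CO2 in the stroma and is built from a large subunit encoded in the chloroplast and small subunits encoded in the nucleus. The nuclear genes for these proteins are among the most strongly expressed genes of green tissue and are known to respond to light, the circadian clock, sugars and signals from the chloroplast.

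Every one of the 174 probes was well above background in all 8 readings (both dyes on 4 arrays), and none was saturated. Over all spots, 74.2% to 78.8% were well above background in a channel. Root markers and shoot markers were both measured, as the label of whole seedlings requires. Arrays 1 and 2 shared a slide, as did arrays 3 and 4. Across the 52 genes the log2 ratios of 2 arrays correlated with r between 0.831 and 0.945, a description over genes, which share their arrays and are not independent. Over all loci, r ran from 0.455 to 0.711 for the same pairs.

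Each gene's value is the log2 ratio of exposed over control intensity, averaged over its probes and then over the 4 arrays, after background correction and loess normalization within each array. A gene is called changed where limma's moderated test against a ratio of 0 gave a Benjamini-Hochberg adjusted p below 0.05 over all 29030 loci. Under these settings 22 of the 52 genes were higher in exposed seedlings, 7 were lower and 23 did not pass the test. Over all loci 17.3% were called, 9.33% higher and 7.96% lower. The median log2 ratio of the 52 genes was 0.11, with 37 above 0 and 15 below, against 0.0029 over all loci. The changes were small. The highest mean was 0.55 on the log2 scale (1.47-fold) and the lowest was -0.28.

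The changes differed by role. All 4 Rubisco small-subunit genes were higher, with a median log2 ratio of 0.48. Of the photosystem II genes, 7 of 10 were higher and none was lower, with a median of 0.20. Of the photosystem I genes, 5 of 12 were higher and none was lower, with a median of 0.12. The electron carriers had 3 of 6 higher, none lower and the same median of 0.12. The antenna went the other way in part. Of the photosystem I antenna genes, 3 of 6 were lower and none was higher, with a median of -0.10. The photosystem II antenna split into 3 higher and 4 lower of 14, with a median of -0.022. At an unadjusted p below 0.05 by limma, still 0 genes of photosystem I, photosystem II or the electron carriers were lower, and 1 photosystem I antenna gene, *LHCA1*, was higher. Over all loci, 9246 of 29030 had such a p, in either direction. With the scanner software's ratio, however, 2 photosystem I genes, *PSAD1* and *PSAG*, were called lower and 4 higher.

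**Figure D1:**
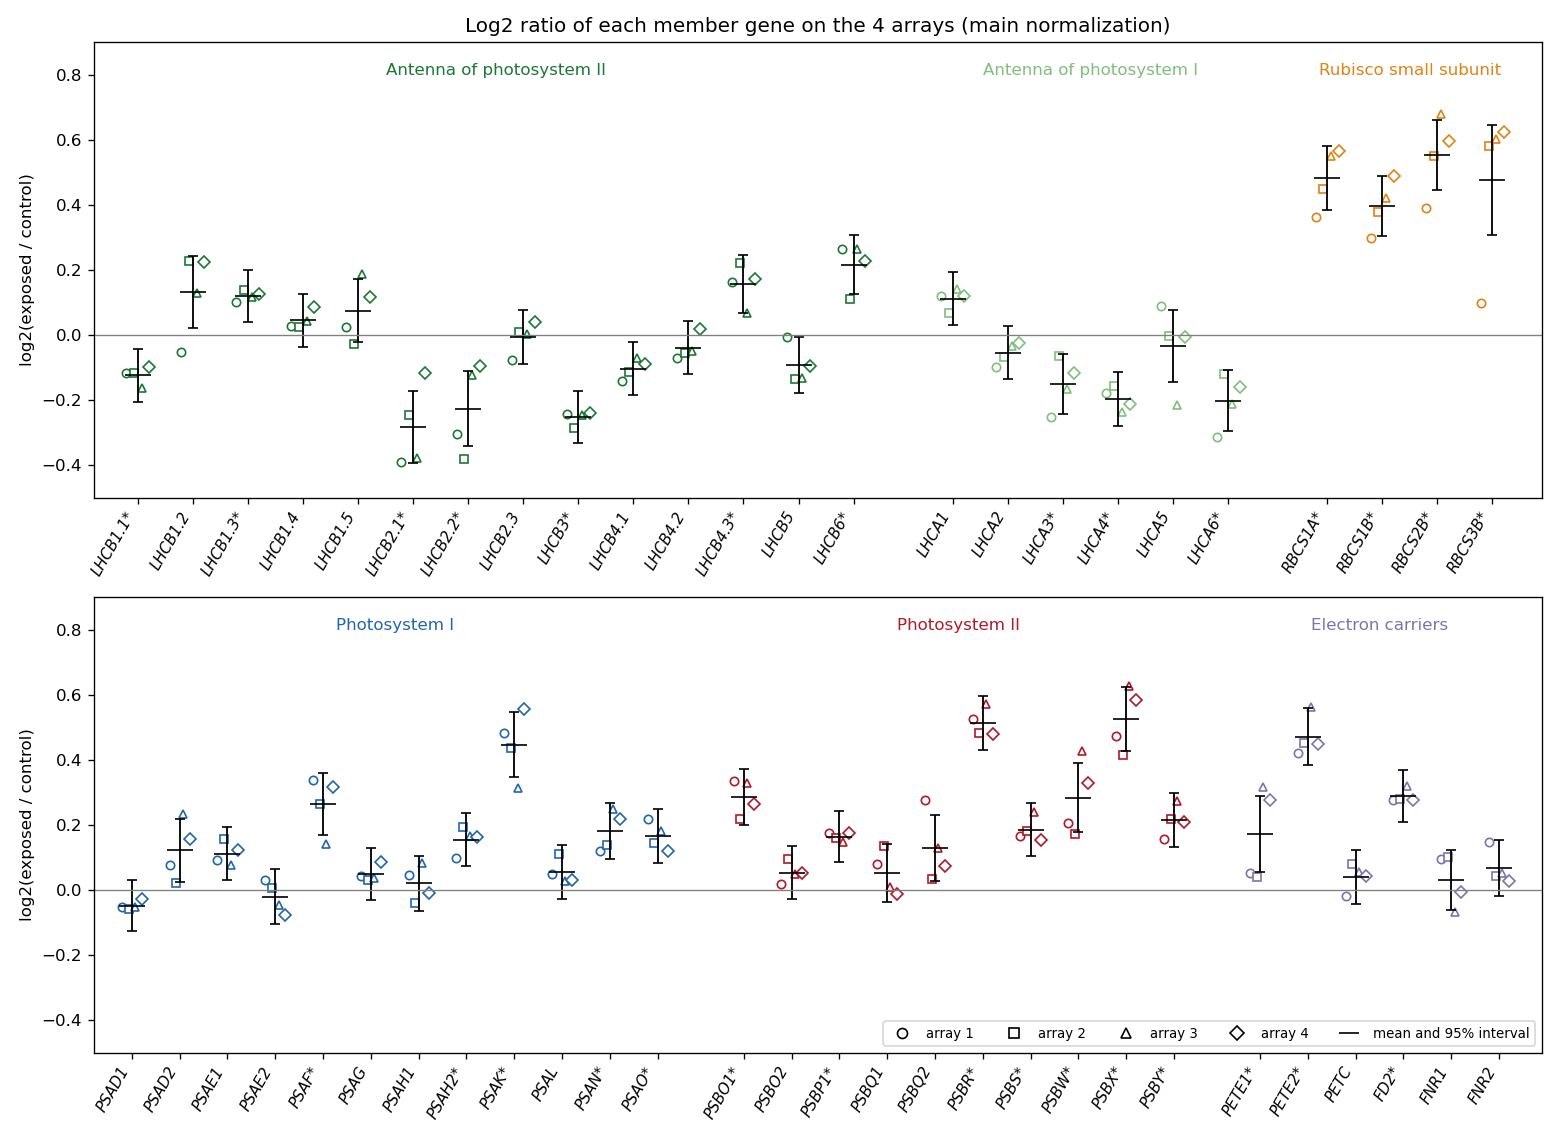
Log2 ratio of exposed over control seedlings (y axis) for each of the 52 genes (x axis, grouped by role) on the 4 arrays. Open symbols are single arrays, black bars give the mean and its 95% interval from limma, and an asterisk marks genes with an adjusted p below 0.05. The 4 Rubisco small-subunit genes lie above 0 on every array, whereas *LHCB2.1*, *LHCB2.2*, *LHCB3*, *LHCA3*, *LHCA4* and *LHCA6* lie below 0 on every array.

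The count of higher genes moved with the normalization, and with it the split between higher and lower calls. With the ratio given by the scanner's own software 17 genes were higher and 12 lower, where 15.3% of all loci were called in each direction. With each array only centred on its median 46 were higher and 1 lower, against 20.7% and 21.3% of all loci. A narrow loess was added after the data had been seen. It used a span of 0.01 in place of 0.3 and was fitted without the probes of any photosynthesis list, and it gave 11 higher and 9 lower, with a median of 0.018, against 8.5% and 8.19% of all loci. In the deposited ratio table of replicates 2 to 4, 13 were higher and 8 lower, against 7.45% and 7.74% of all loci. When control and exposed channels were fitted without the array as pair, 18 were higher and 4 lower, against 5.1% and 4.12%. With an ordinary test, which shares no variance between loci, 0 of 52 genes and only 0.0586% of all loci passed the adjusted threshold. By that test 36 of the 52 had an unadjusted p below 0.05, and the share of all loci was not counted.

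Probe brightness moved with these results. Across the 52 genes the mean log2 ratio rose with the mean log2 intensity (r = 0.733, rho = 0.706, over genes measured on the same arrays). Over all loci the same r was 0.00041, but loess removes such a trend over all spots by its construction. Probes with a mean log2 intensity over 17 were positive without exception, both the 41 probes of these genes (median 0.48) and the 48 brightest probes of no photosynthesis list (median 0.36). In the class from 16 to 17, 77.5% of 40 probes of these genes and 78.1% of 160 other probes were positive, with medians of 0.22 and 0.12. From 14 to 16 the medians were -0.035 for 44 and -0.033 for 1166 probes. Below 12, where no such rise was present, the 20 probes of these genes had a median of -0.11, with 5 positive, while 37756 other probes had a median of 0.0027.

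These genes are bright. On each array the software took 67.8% to 72.4% of their spots, but only 3.02% to 3.67% of all spots, from a second scan at low gain that it scaled up to the range of the main scan. Among the 29 genes with probes never taken from that scan, 5 were higher and 8 lower by those probes alone, with a median of -0.034. Of all 28459 loci with such probes, 9.01% were called higher and 7.83% lower. In the main fit 12 of these 29 genes were called. After the narrow loess the other probes over 17 had a median of -0.0024 by its construction, and the probes of these genes in that class had a median of 0.11, with 29 of 41 positive. By role, the narrow loess gave 1 higher and 6 lower antenna genes of photosystem II (median -0.094), 0 and 3 of the photosystem I antenna (-0.12), 2 and 0 of photosystem I (0.051), 5 and 0 of photosystem II (0.12), 3 and 0 electron carriers (0.089) and 0 and 0 Rubisco small-subunit genes (0.061). What part brightness, the low-gain scan or the dyes had in the rises was not tested.

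**Figure D2:**
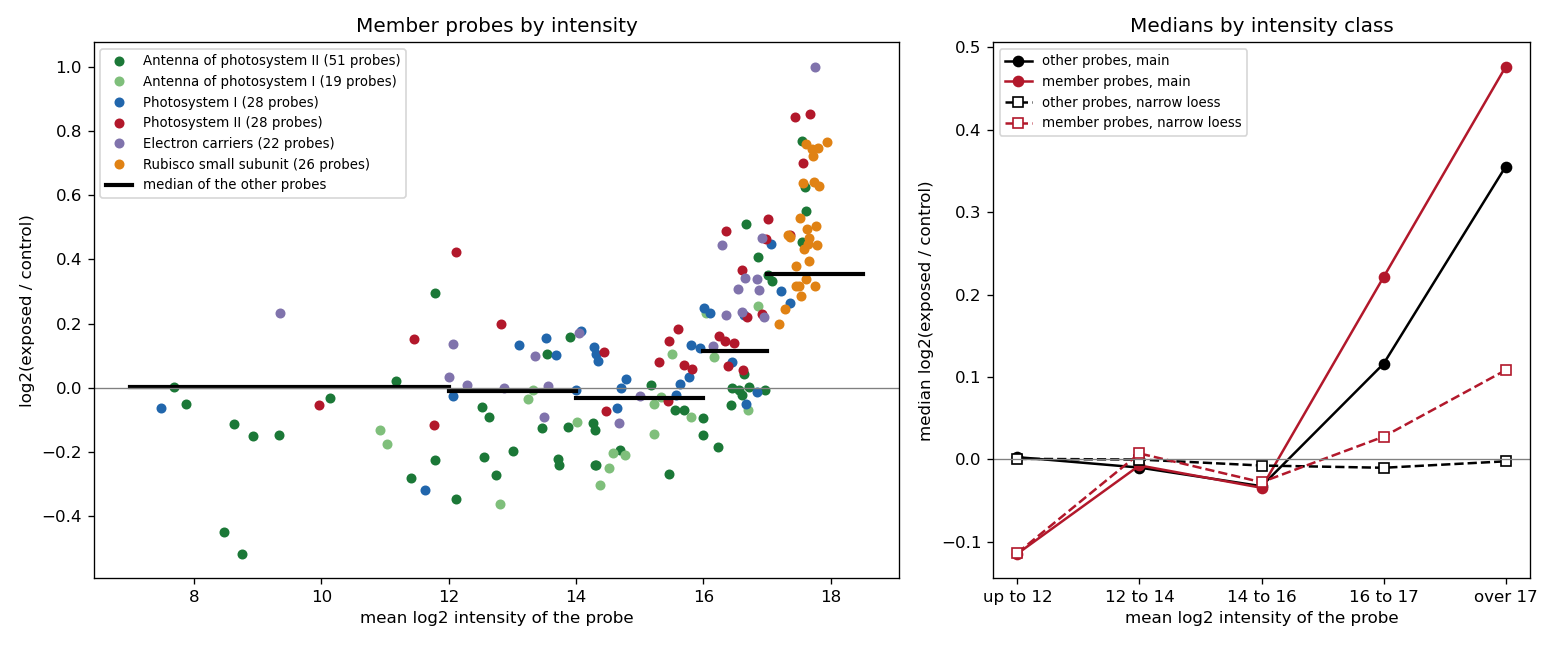
Left, log2 ratio (y axis) of each of the 174 probes against its mean log2 intensity (x axis), coloured by role, with black lines at the median of the probes of no photosynthesis list in 5 intensity classes. Right, medians of both sets of probes in these classes, under the main normalization (filled circles) and the narrow loess (open squares). Above an intensity of 17 the main medians were 0.48 and 0.36 for these genes and for the other probes.

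The lowered genes were antenna genes, and they included the major light-harvesting complex of photosystem II. *LHCB3* (AT5G54270), which joins LHCB1 and LHCB2 in trimers of that complex, had log2 ratios of -0.24, -0.29, -0.25 and -0.24 on arrays 1 to 4. The arrays barely differed, and all 4 of its probes were called lower. Its normalized intensity was 13190 to 13540 in control and 11060 to 11410 in exposed seedlings, without overlap. The mean of -0.25 (95% interval -0.33 to -0.17, n = 4) had an adjusted p of 0.0018 by limma, and the narrow loess gave -0.24.

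*LHCB2.1* (AT2G05100) and *LHCB2.2* (AT2G05070), adjacent coding genes on chromosome 2, encode the LHCB2 protein, whose phosphorylation guides state transitions. *LHCB2.1* had log2 ratios of -0.39, -0.24, -0.38 and -0.12, with a mean of -0.28 (95% interval -0.39 to -0.17, n = 4, limma adjusted p = 0.0046). *LHCB2.2* had -0.31, -0.38, -0.12 and -0.097, with a mean of -0.23 (95% interval -0.34 to -0.11, n = 4, limma adjusted p = 0.015). Both were below 0 on every array, but the size varied widely among arrays, and *LHCB2.2* was nearer to 0 on both arrays of slide 2. Of the 2 dim probes of *LHCB2.1*, 1 fell by 0.52 and the other was at -0.049, not called. The third gene of the subfamily, *LHCB2.3* (AT3G27690), had -0.076, 0.0094, 0.0028 and 0.040, with a mean of -0.0060 and no call. These copies are alike in sequence, and which copy a probe reads was not examined here. Under the narrow loess *LHCB2.1* and *LHCB2.2* were at -0.28 and -0.22, both called. Without replicate 1 *LHCB2.2* was at -0.20 and no longer passed (limma adjusted p = 0.074).

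The 5 *LHCB1* genes encode the most abundant antenna protein of photosystem II. They lie in a run of 3 adjacent coding genes on chromosome 1 (*LHCB1.1* to *LHCB1.3*) and a pair on chromosome 2 (*LHCB1.4* and *LHCB1.5*), and their probes disagreed. *LHCB1.1* (AT1G29920) had log2 ratios of -0.12, -0.12, -0.16 and -0.099, lower on every array, with a mean of -0.12 (95% interval -0.20 to -0.043, n = 4, limma adjusted p = 0.041). *LHCB1.3* (AT1G29930) had 0.10, 0.14, 0.12 and 0.12, higher on every array, with a mean of 0.12 (95% interval 0.041 to 0.20, n = 4, limma adjusted p = 0.044). Neither call remained when any 1 replicate was left out.

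The mean of *LHCB1.3* hid probes of opposite sign. Its 3 brightest probes, all above a log2 intensity of 17, rose by 0.55, 0.63 and 0.77, whereas its 3 dimmest, between 12.55 and 13.01, were at -0.27, -0.22 and -0.20. All 6 were called. A further probe at -0.18 was called lower too, although it was bright, with a log2 intensity of 16.23. The gene stood at -0.014 when the median of its probes was used, at -0.040 under the narrow loess and at -0.23 (called lower) when only probes never taken from the low-gain scan were kept.

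The same division showed in the other copies. *LHCB1.2* (AT1G29910) had log2 ratios of -0.053, 0.23, 0.13 and 0.23, with 1 array apart in sign, a mean of 0.13 and no call, and its only called probe, at 0.46, was the brightest of its 3. *LHCB1.4* (AT2G34430) had 0.029, 0.024, 0.043 and 0.086, all close to 0, although its single probes ran from -0.15 to 0.51. *LHCB1.5* (AT2G34420) had 0.025, -0.028, 0.19 and 0.12, with the lower values on slide 1, and its probes ran from -0.35, the dimmest, to 0.41. Across all 52 genes, 43 had more than 1 probe, all probes had the same sign in 23 of these, and 4 genes (*LHCB1.3*, *LHCB1.4*, *LHCB1.5* and *PSAD1*) had probes called in both directions. Tested singly, 75 of the 174 probes were called higher and 24 lower, against 9.62% and 8.58% of all probes.

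**Figure D3:**
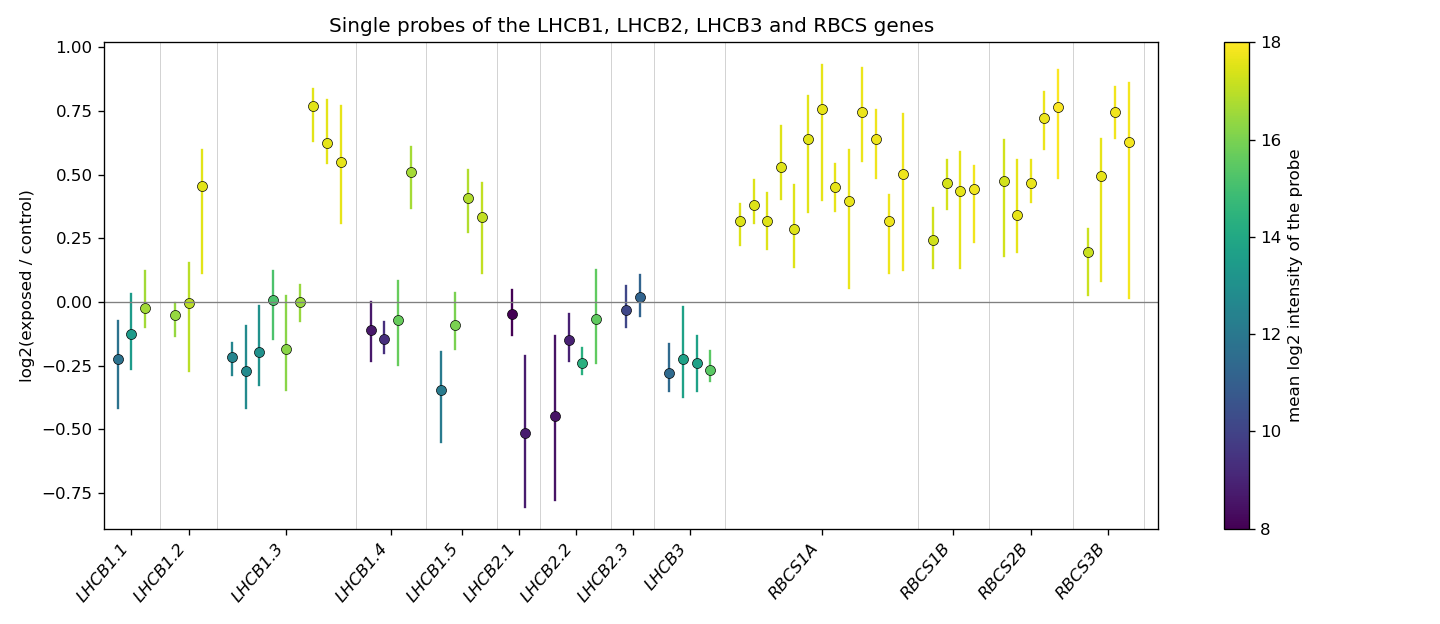
Log2 ratio (y axis) of single probes of the *LHCB1*, *LHCB2*, *LHCB3* and *RBCS* genes (x axis), ordered within a gene by brightness and coloured by mean log2 intensity. Points are means over 4 arrays and vertical lines run from the lowest to the highest array. All 4 *LHCB3* probes lie below 0, all 26 *RBCS* probes lie above 0, and *LHCB1.3* runs from -0.27 to 0.77.

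The minor antenna proteins link the trimers to the core of photosystem II. Among their genes, *LHCB6* (AT1G15820) was higher by 0.22 (limma adjusted p = 0.0064, 4 of 4 arrays) and *LHCB4.3* (AT2G40100), read by 1 probe, by 0.16 (limma adjusted p = 0.023, 4 of 4 arrays). *LHCB4.1*, *LHCB4.2* and *LHCB5* had means of -0.10, -0.039 and -0.092 and were not called. Under the narrow loess *LHCB6* was at 0.057 and not called, *LHCB4.3* was at 0.19 and called, and *LHCB4.1* (-0.12, limma adjusted p = 0.0498) and *LHCB5* (-0.16) were called lower. *LHCB4.3* lost its call without replicate 1, 2 or 4, with limma adjusted p-values of 0.078 to 0.093.

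In the antenna of photosystem I, the called genes were all lower. *LHCA4* (AT3G47470), which pairs with LHCA1 and holds the most red-shifted chlorophylls, had log2 ratios of -0.18, -0.16, -0.24 and -0.21. Its 6 probes were all below 0, and the mean was -0.20 (95% interval -0.28 to -0.11, n = 4, limma adjusted p = 0.0063). *LHCA6* (AT1G19150), a minor form that connects photosystem I with the NADH dehydrogenase-like complex, was at -0.20 by 1 probe (limma adjusted p = 0.010). *LHCA3* (AT1G61520), which forms the other antenna pair with LHCA2, was at -0.15 (limma adjusted p = 0.034) and lost its call without replicate 1, 3 or 4. *LHCA1* (0.11), *LHCA2* (-0.055) and *LHCA5* (-0.034) were not called. The narrow loess left *LHCA3*, *LHCA4* and *LHCA6* lower, at -0.21, -0.18 and -0.18. Median centring without loess turned these 3 genes, *LHCB3* and *LHCB1.1* to values above 0, between 0.041 and 0.20, and left *LHCB2.1* lower at -0.32.

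Of the photosystem I core genes, *PSAK* (AT1G30380) changed most. It encodes a small membrane subunit beside the antenna, and its single probe gave log2 ratios of 0.48, 0.44, 0.31 and 0.56. Normalized intensity was 111100 to 120400 in control and 149300 to 163400 in exposed seedlings, without overlap. The mean was 0.45 (95% interval 0.35 to 0.55, n = 4, limma adjusted p = 0.00037), but it was 0.16 and just missed the call under the narrow loess (limma adjusted p = 0.051). *PSAF*, the subunit that docks plastocyanin, was at 0.26, *PSAN*, a subunit on the lumen side, at 0.18, and *PSAO* and *PSAH2*, which take part in binding the mobile antenna, at 0.17 and 0.15, all called higher.

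*PSAF* and *PSAO* were at -0.095 and -0.011 under the narrow loess and not called, while *PSAH2*, whose probe was never in the low-gain scan, was at 0.17 and called. *PSAN* was at 0.075 there, not called. The ferredoxin-docking subunits *PSAD1*, *PSAD2*, *PSAE1* and *PSAE2* lay between -0.048 and 0.12 and *PSAG*, *PSAH1* and *PSAL* between 0.020 and 0.055, with none called. *PSAD2* was called higher under the narrow loess, at 0.16.

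Photosystem II genes were called higher more often than those of photosystem I, without a test of that difference. *PSBX* (AT2G06520), a small subunit with a single membrane helix, had log2 ratios of 0.47, 0.42, 0.63 and 0.58 by 1 probe. Its intensity was 109700 to 112900 in control and 146300 to 169800 in exposed seedlings, so the groups did not overlap. The mean was 0.53 (1.44-fold, 95% interval 0.43 to 0.62, n = 4, limma adjusted p = 0.00017), and 0.25, still called, under the narrow loess.

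*PSBR* (AT1G79040), a lumen-side subunit needed for stable binding of the oxygen-evolving proteins, had log2 ratios of 0.52, 0.48, 0.57 and 0.48, nearly alike on all arrays. All 4 probes were above 0 and 3 were called higher, but they differed in size. The dimmer ones were at 0.14 and 0.22, and the brighter ones, above a log2 intensity of 17, at 0.84 and 0.85. The mean was 0.51 (95% interval 0.43 to 0.60, n = 4, limma adjusted p = 7.6e-05), and the narrow loess gave 0.22, called.

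*PSBO1* (AT5G66570), the main form of the protein that stabilises the manganese cluster, had 0.33, 0.22, 0.33 and 0.26, with a mean of 0.29 (95% interval 0.20 to 0.37, n = 4, limma adjusted p = 0.0014). Its 3 probes were spread from -0.072, the dimmest, to 0.70, the brightest. It was at 0.077 under the narrow loess and at 0.16 when spots marked for uneven background were left out, not called in either.

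The small subunits *PSBW* (0.28) and *PSBY* (0.22) were also higher, as was *PSBS* (0.19), the sensor of lumen acidity in energy quenching, and *PSBP1* (0.16), an oxygen-evolving protein. Under the narrow loess *PSBW*, *PSBY* and *PSBS* remained called at 0.16, 0.17 and 0.13, and *PSBP1* did not, at 0.075. *PSBS* rested on 1 bright probe at 0.49, its dimmer probe was at -0.12, and the gene lost its call (0.093) without spots marked for uneven background. *PSBO2*, *PSBQ1* and *PSBQ2* were between 0.053 and 0.13, not called.

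Among the electron carriers, the plastocyanin gene *PETE2* (AT1G20340) rose most, with log2 ratios of 0.42, 0.45, 0.56 and 0.45. All 4 of its probes were called higher, the brightest at 0.9997 and the others at 0.24 to 0.34. Normalized intensity was 104600 to 110000 in control and 143600 to 154500 in exposed seedlings, and the mean was 0.47 (95% interval 0.38 to 0.56, n = 4, limma adjusted p = 0.00017). The other plastocyanin gene, *PETE1* (AT1G76100), was at 0.051 and 0.040 on slide 1 but at 0.32 and 0.28 on slide 2, with a mean of 0.17 that only just passed (limma adjusted p = 0.0497). The slides did not overlap for this gene, and the call was lost without replicate 1, 3 or 4.

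*FD2* (AT1G60950), the main ferredoxin of leaves, had log2 ratios of 0.28, 0.28, 0.32 and 0.28. All 7 probes were above 0, and 6 were called. The mean was 0.29 (95% interval 0.21 to 0.37, n = 4, limma adjusted p = 0.0010), and probes never in the low-gain scan gave 0.12, called as well (limma adjusted p = 0.049). Under the narrow loess *PETE2*, *PETE1* and *FD2* all remained higher, at 0.21, 0.22 and 0.14. The Rieske protein gene *PETC* (0.040) and the ferredoxin-NADP reductase genes *FNR1* (0.031) and *FNR2* (0.067) were not called.

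The Rubisco small-subunit genes had the highest values as a group and also the brightest probes, with mean log2 intensities of 17.5 to 17.65 per gene. *RBCS1A* (AT1G67090), the copy on chromosome 1, had log2 ratios of 0.36, 0.45, 0.55 and 0.57. Its intensity was 165000 to 178600 in control and 227200 to 244500 in exposed seedlings, and the mean was 0.48 (95% interval 0.39 to 0.58, n = 4, limma adjusted p = 0.00021). All 13 of its probes were called higher.

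*RBCS1B* (AT5G38430), *RBCS2B* (AT5G38420) and *RBCS3B* (AT5G38410) are adjacent coding genes on chromosome 5, with closely related sequences, so the values of single copies are uncertain. *RBCS1B* had 0.30, 0.38, 0.42 and 0.49, with a mean of 0.40 (95% interval 0.31 to 0.49, n = 4, limma adjusted p = 0.00042). *RBCS2B* had 0.39, 0.55, 0.68 and 0.60, with a mean of 0.55 (95% interval 0.45 to 0.66, n = 4, limma adjusted p = 0.00018). In these copies and in *RBCS1A* array 1 was the lowest. *RBCS3B* had 0.099, 0.58, 0.60 and 0.62, with array 1 far below the others, and a mean of 0.48 (95% interval 0.31 to 0.65, n = 4, limma adjusted p = 0.0031), or 0.60 without replicate 1.

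The rise of these 4 genes depended on how the brightest spots were normalized. With the scanner software's ratio they were at 0.20 to 0.29, with 3 called and *RBCS3B* not (limma adjusted p = 0.093). Under the narrow loess they were at 0.062, 0.0023, 0.12 and 0.059 (*RBCS1A*, *RBCS1B*, *RBCS2B* and *RBCS3B*), and 0 of 4 were called, with an unadjusted p below 0.05 for *RBCS2B* alone (0.012). With median centring alone they were at 1.01 to 1.18. None of their probes stayed out of the low-gain scan, so they have no value without it.

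In 3 normalizations, the main one, the scanner software's ratio and the narrow loess, the same 9 genes were called higher: *LHCB4.3*, *PSAH2*, *PSBR*, *PSBS*, *PSBW*, *PSBX*, *PSBY*, *PETE2* and *FD2*. The same 6 genes were called lower: *LHCB1.1*, *LHCB2.1*, *LHCB2.2*, *LHCB3*, *LHCA3* and *LHCA4*. Not all of these calls held in the other settings. Over all alternatives with a test, *LHCB1.1* was called, in either direction, in 11 of 23, *LHCA3* in 14 of 23 and *LHCB4.3* in 15 of 22. Of the 22 genes higher in the main fit, 12 were not called under the narrow loess, whereas all 7 lower genes were. Median centring raised nearly all of these genes. It put 2 of the 6, *LHCB1.1* and *LHCA3*, among the higher calls and kept 1, *LHCB2.1*, lower. All 29 called genes had the same sign on all 4 arrays. Their sign on each slide alone follows from that and is no separate support.

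**Figure D4:**
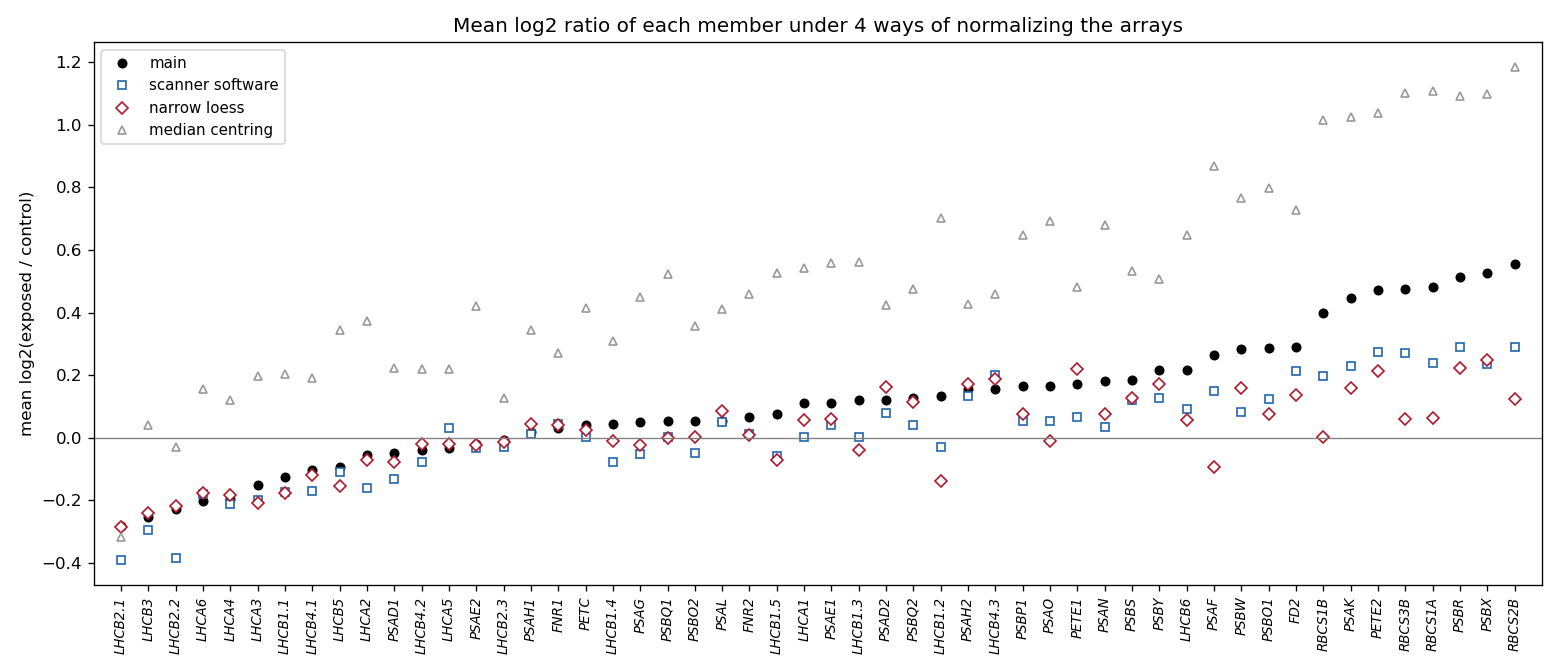
Mean log2 ratio (y axis) of the 52 genes (x axis, ordered by the main value) under the main normalization, the scanner software's ratio, the narrow loess and median centring. The 4 *RBCS* genes lie at 0.40 to 0.55 under the main setting and between 0.0023 and 0.12 under the narrow loess, and *LHCB2.1* is the only gene called lower under all 4.

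Related genes differed from each other within the same arrays, described here without a test because the pairs were picked with results known. *LHCB6* stood above *LHCB3* by 0.40 to 0.51 on the 4 arrays. *LHCB2.1* stood below *LHCB2.3* by 0.16 to 0.38, and *PSBO1* stood above *PSBO2* by 0.13 to 0.32. *PETE2* was above *PETE1* by 0.17 to 0.41, and *LHCB4.3* was above *LHCB4.1* by 0.14 to 0.34. The 2 ferredoxin-NADP reductase genes and the 2 *PSBQ* genes overlapped over the arrays. Most of these pairs also differ in the brightness of their probes.

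For the other lists the 17.3% of all loci called is again the background, and their difference from the 52 genes was not tested. Of 20 Calvin-Benson cycle genes, 5 were higher and 2 lower, with a median log2 ratio of 0.052. *CP12-1* (0.31), which binds enzymes of the cycle in darkness, and the plastid aldolase *FBA2* (0.28) rose, while another plastid aldolase, *FBA3* (-0.30), fell. Of 26 genes of chlorophyll synthesis, 2 were higher and 3 lower, with a median of -0.031, a share of calls near that background. *GUN4* (0.20), which activates magnesium chelatase, and *CAO* (0.18), which makes chlorophyll b, were higher, and *HEMB1* (-0.19), an early enzyme of tetrapyrrole synthesis, was lower.

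Of 21 other thylakoid genes, 5 were higher and 1 lower, with a median of 0.092, led by the photosystem II subunit *PSBTN* (0.36), the cytochrome b6f subunit *PETM* (0.27) and *PPL1* (0.16), which acts in repair of photosystem II. Of 7 stress proteins related to the antenna, 3 were higher (*OHP1* at 0.20, *SEP2* at 0.18 and *ELIP2* at 0.14) and none lower (1 at an unadjusted p below 0.05 by limma). Under the narrow loess the calls in these 4 lists were 3 higher and 2 lower, 2 and 2, 4 and 1, and 2 and 0.

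Of 21 regulators of photosynthesis genes, 5 were higher and 3 lower, with a median of 0.035. The photoreceptor gene *PHYA* (-0.29) and *PIF4* (-0.27), which restrains greening in the dark together with its relatives, were lower. *GLK2* (0.28), a factor that activates antenna and chlorophyll genes, was higher. The narrow loess gave the same counts of 5 and 3. Of 9 chloroplast-encoded partners, 3 were higher and 2 lower, with a median of 0.0030. The photosystem II reaction-centre gene *psbA* (0.65) and the Rubisco large-subunit gene *rbcL* (0.43) rose and *psbB* (-0.22) fell, but under the narrow loess 2 of the list were higher and 5 lower. Chloroplast transcripts largely lack the poly(A) tails of nuclear ones, and per the labels the RNA was primed with an oligo-T primer for reverse transcription, whereas the methods describe labelled cRNA without naming a primer.

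Some markers of root cells moved as well. Of 22 root markers, 5 were lower and none higher, with a median of -0.087 and 17 below 0. At an unadjusted p below 0.05 by limma, 9 were lower and 1 higher, beside 9246 of all 29030 loci in either direction. The 5 root markers above 0, at 0.025 to 0.11 and not called, were *SCR*, *SHR*, *CASP1*, *CASP2* and *MYB36*. Those called lower were led by the root-hair expansin *EXPA7* (-0.57), the root-hair wall protein *PRP1* (-0.33) and the iron transporter *IRT1* (-0.31). The summed normalized intensity of all 22 root markers, called or not, was 76272 to 81232 in control and 73620 to 74096 in exposed seedlings. Each of the 22 was above background in some readings. With the narrow loess 7 root markers were lower and 0 higher, and 2 shoot markers were higher and 2 lower. Of 16 shoot markers, 2 were higher (*YAB5* at 0.29 and *AN3* at 0.21) and 2 lower, of which *GL1* (-0.29) fell further, with a median of -0.00018 and sums of 18730 to 19713 and 18725 to 19727. The part of the makeup of the seedlings in the changes of photosynthesis genes was not tested.

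**Figure D5:**
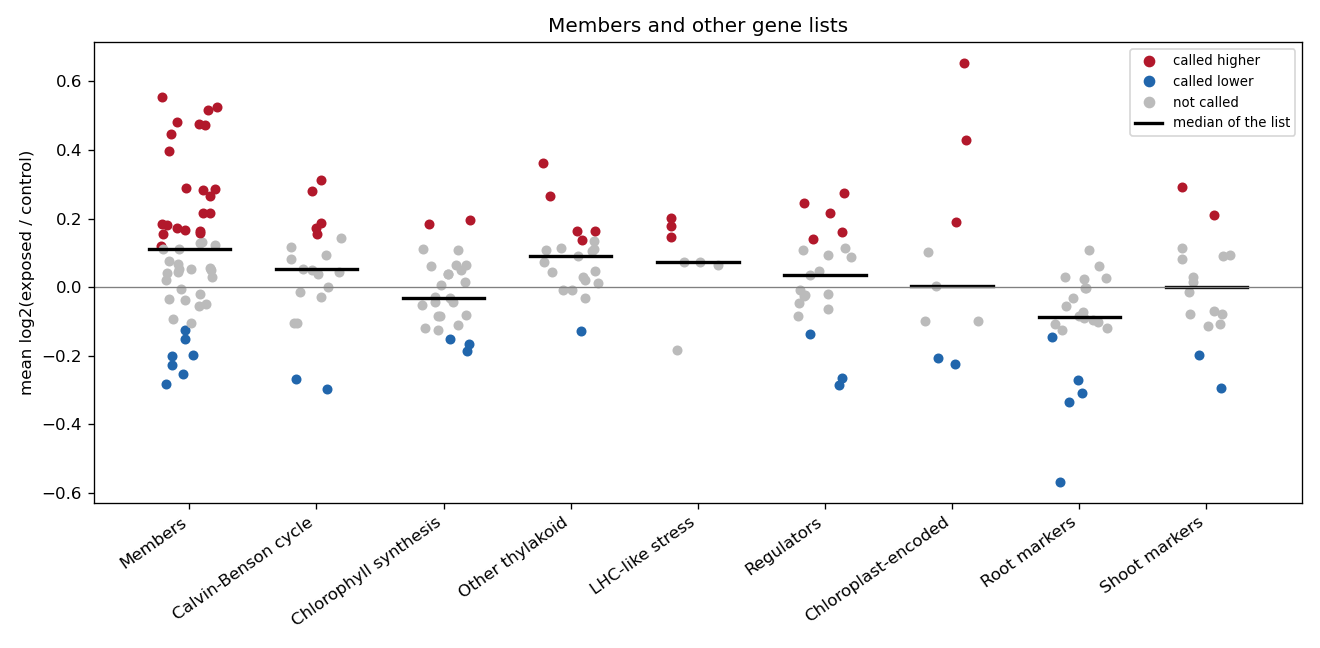
Mean log2 ratio (y axis) of the 52 genes and of the genes of 8 other lists (x axis), with called genes in colour and the median of each list as a bar. The medians lie between -0.087 (root markers) and 0.11 (the 52 genes), and *psbA* has the highest value at 0.65.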

How the data were processed

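The authors deposited, for each array, the output of Agilent Feature Extraction 11.5.1.1, in which median intensity per spot and median local background are linear and not normalized. A log10 ratio (Cy5 over Cy3), corrected and dye-normalized by the scanner software, is in the same deposited output. In the deposited series table the columns of replicates 2 to 4 hold this log10 ratio and that of replicate 1 holds its error, so it was left out. Flags for outliers, background and the low-gain scan came from the same deposited output. The labels' free text on the cells names another material, and the source field, whole seedling, was followed. Labels and methods differ on the amount of RNA and on the labelling, which the labels give as reverse transcription from an oligo-T primer and the methods as transcription into cRNA.

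In R 4.3.3 with limma 3.58.1, intensities were corrected by normexp (offset 50) and normalized by loess (span 0.3, control and outlier spots at weight 0). Outlier spots were dropped, spots averaged per probe and probes per locus, and an intercept model with eBayes fitted to 4 log2 ratios, with Benjamini-Hochberg adjustment. Loci of 38413 probes came from the files, and 5190 probes had none. All 52 genes matched the RefSeq table of TAIR10.1, used for names and gene order only. The array was taken as the pair of its samples. Deviations of each channel from its mean over the 4 arrays correlated with r of 0.246 to 0.507 within arrays and -0.355 to 0.109 between arrays. Both channels of an array share its spots, so these values do not show whether the RNA samples themselves were paired. The steps were tested on simulated data.

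The members and all lists were chosen with earlier results of these data known. All members are named, with each array's values for the 10 called members of largest change and for all *LHCB1*, *LHCB2* and *RBCS* genes, and up to 3 called genes come from each other list. Other genes given by array, and the related pairs, were chosen after their values were seen. Alternatives covered background correction, normalization, outlier and dim spots, variance model, array weights, pairing, slide, probe summary and each replicate left out. Those added later were the narrow loess, probes never in the low-gain scan, slide as a fixed block and normexp with no offset. The number of arrays limits the precision. Limma's p-values and intervals combine each gene's spread between 4 arrays with a variance estimated over all loci. Those of the ordinary test use the gene's own spread alone. Figures were drawn with matplotlib.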

Additional observations from a re-analysis of the deposited data

Results flagged for a closer look

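Among the 52 genes, 3 had 1 array apart from the other 3 by Dixon's criterion, which chance meets in about 1 group in 20. *RBCS3B* was at 0.099 on array 1 and between 0.58 and 0.62 on the others. *FD2* was at 0.32 on array 3 and at 0.28 on the others, and *LHCB3* was at -0.29 on array 2 and between -0.25 and -0.24 on the others, so that in both the gap was small.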

How the results depend on the processing

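The number of genes called higher, 22 in the main fit, was 10 with plain background subtraction, 46 with median centring and 13 in the deposited table. It was 5 of only 29 genes with probes never in the low-gain scan, 12 of which were called in the main fit. The number was 11 with the narrow loess, and 0 with an ordinary test or with normexp without an offset (36 and 31 genes with an unadjusted p below 0.05). The number called lower, 7 in the main fit, was 3, 1, 8, 8 and 9 in the same order and 0 with the last pair, 12 with the scanner software's ratio and 4 without the array as pair (no replicate block). Leaving out 1 replicate gave 16 to 20 higher and 3 to 6 lower, with the lowest count of 3 without replicate 1. Of all loci, 4.73% to 7.37% were then called higher and 4.06% to 5.98% lower. With plain subtraction those shares were 4.85% and 3.19%, and with probes never in the low-gain scan 9.01% and 7.83%. An ordinary test called 0.0586% of all loci in either direction, and normexp without an offset 0.00344%. Beside the losses given above, limma's adjusted p rose without replicate 1 to 0.059 for *LHCA6*, 0.075 for *PSAO* and 0.056 for *PSBP1*, without replicate 2 to 0.059 for *PSAH2*, and without replicate 4 to 0.080 for *PSAH2*, 0.064 for *PSAN* and 0.061 for *PSBP1*. The median log2 ratio, 0.11 in the main fit, was 0.092 with plain subtraction, 0.074 without spots of uneven background, 0.47 with median centring, 0.13 with loess fitted without these genes or without all photosynthesis genes, 0.033 with the scanner software's ratio, 0.017 in the deposited table, 0.094 on slide 1, 0.082 with the median of a locus's probes, 0.099 with no offset, 0.018 with the narrow loess, -0.034 without low-gain probes, and 0.093 to 0.11 with 1 replicate left out. Of these medians, that without low-gain probes alone was below 0, and it covers only the 29 genes with probes never in that scan.

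Turns of sign are named for genes called in the main fit or under the alternative. Median centring changed the sign of 13 genes and turned these 12, *LHCB1.1* (0.20), *LHCB3* (0.041), *LHCB4.1* (0.19), *LHCB4.2* (0.22), *LHCB5* (0.34), *LHCA2* (0.37), *LHCA3* (0.20), *LHCA4* (0.12), *LHCA5* (0.22), *LHCA6* (0.16), *PSAD1* (0.22) and *PSAE2* (0.42). The scanner software's ratio changed 6 signs, the median of probes 3, the narrow loess 8 and probes never in the low-gain scan 9 of 29, mostly of genes called in neither. Of those called, the scanner software's ratio turned *LHCB1.4* (-0.078) and *PSAG* (-0.053), the median of probes turned *LHCB1.3* (-0.014), the narrow loess turned *LHCB1.3* (-0.040), *PSAF* (-0.095) and *PSAO* (-0.011), and probes never in the low-gain scan turned *LHCB1.3* (-0.23), *LHCB1.5* (-0.35) and *PSBS* (-0.12). The cause was not tested.

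Calls in the other lists, of either direction, moved too. The share of all loci called moved as well, from 17.3% in the main fit to 8.04% with plain subtraction and 41.9% with median centring. It was 30.6% with the scanner software's ratio, 25.7% with no background correction and 15.2% in the deposited table. Without the array as pair it was 9.21%, without low-gain probes 16.8%, and with 1 replicate left out 8.79% to 13.4%. With an ordinary test or no offset the calls were 0 in every list. The Calvin-Benson cycle had 7 calls in the main fit, 3 with plain subtraction, 17 with median centring, 13 with the scanner software's ratio, 4 without low-gain probes and 5 to 7 with 1 replicate left out. Chlorophyll synthesis had 5, then 0, 16, 10 and, without the array as pair, 3, and 2 to 5 with 1 replicate left out. Other thylakoid genes had 6, then 0 with plain subtraction, 16 with median centring, 3 in the deposited table, 2 without low-gain probes and 2 to 4 with 1 replicate left out. The stress proteins had 3, then 0, 6, 1 without low-gain probes, 1 without the array as pair and 1 to 3 with 1 replicate left out. Regulators had 8, then 3 with plain subtraction, 5 in the deposited table, 4 without the array as pair and 5 to 7 with 1 replicate left out. The chloroplast-encoded partners had 5, then 2 with plain subtraction, 2 without the array as pair, 0 without low-gain probes and 2 to 5 with 1 replicate left out. Root markers had 5, then 3 with plain subtraction, 8 with no background correction, with median centring and in the deposited table, 13 with the scanner software's ratio and 4 to 5 with 1 replicate left out. Shoot markers had 4, and 3 to 4 with 1 replicate left out.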
